A study of Mus musculus with 18 samples.

Results

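The 6 genes considered here code for surface proteins of antigen-presenting cells: Cd40, Cd80, Cd86, Cd274, Cd69 and Slamf7. They were followed through an RNA sequencing study of the mouse macrophage-like line RAW264.7. They were taken by symbol from a table of 45777 genes, and all 6 of 6 were among the 14650 genes that passed a filter on low read counts. The study asked how SB24011, described as blocking the STING-TRIM29 interaction, affected expression alone and together with cGAMP, a STING agonist. Wild type cells were kept for 6 h in serum-free DMEM in one of 6 conditions. These were 20 uM cGAMP combined with SB24011 at 20 uM or at 10 uM, 20 uM cGAMP combined with 7a at 20 uM, 20 uM cGAMP by itself, SB24011 by itself at 20 uM, and DMSO, the vehicle. The compound 7a is described as a negative analog of SB24011, and it was used only together with cGAMP. Each of the 6 groups had 3 libraries, all from 1 cell line, and the labels do not say whether these came from separate cultures, so p-values measure only the spread between these libraries.

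Antigen-presenting cells give T cells an antigen signal together with a second, costimulatory signal. CD40 is a receptor of the TNF receptor family that is engaged by CD40 ligand on T cells and licenses the presenting cell. CD80 and CD86, the classical B7 proteins, bind the activating receptor CD28 and the inhibitory receptor CTLA-4 on T cells. PD-L1, the product of Cd274, is a B7 relative that binds the inhibitory receptor PD-1. CD69 is an early activation antigen of leukocytes that holds the receptor S1PR1 inside the cell, and SLAMF7 is a self-binding receptor of the SLAM family. STING signals through TBK1 to IRF3 and NF-kB, and the interferons made in this way act back on the cell through their receptor.

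In the RefSeq annotation of GRCm38, the build named by the submitters, Cd40 (NCBI Gene 21939) lay at chr2:165055614-165071654 on the plus strand and Cd69 (12515) at chr6:129267324-129275375 on the minus strand. Cd80 (12519) at chr16:38457430-38495958 on the plus strand and Cd86 (12524) at chr16:36568956-36666158 on the minus strand shared a chromosome. Cd274 (60533) lay at chr19:29362107-29388095 on the plus strand and Slamf7 (75345) at chr1:171632403-171653037 on the minus strand. Cd274 overlaps Plgrkt, which runs in the opposite direction at chr19:29348599-29367292. The strand setting of the read counter is not given in the sources used here, so reads of these overlapping genes could not be told apart. Plgrkt averaged 26.6 CPM over all libraries. By edgeR it was called up with cGAMP against DMSO (log2 fold change 0.26, adjusted p = 0.0151) and with SB24011 against DMSO (0.39, adjusted p = 0.000675). With 20 uM SB24011 on cGAMP its log2 fold change was 0.14 (adjusted p = 0.170). Counts of Cd80 (Gm8590, Gm41453, Ck-ps3) and Slamf7 (Mir7683) are uncertain in the same way, since these annotated genes overlap them.

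The 250 bases before a RefSeq start site (GRCm38.p6) are shown for the 3 members with a window in the sequence table, because 1 of them, Cd80, moved in the opposite direction to the others when SB24011 was added. They are written 5′ to 3′ on the strand of the gene, and the capitals mark a match to a searched motif. The windows are chr16:38458683-38458932 (plus) for Cd80, chr19:29367188-29367437 (plus) for Cd274 and chr1:171649000-171649249 (minus) for Slamf7.
Cd80: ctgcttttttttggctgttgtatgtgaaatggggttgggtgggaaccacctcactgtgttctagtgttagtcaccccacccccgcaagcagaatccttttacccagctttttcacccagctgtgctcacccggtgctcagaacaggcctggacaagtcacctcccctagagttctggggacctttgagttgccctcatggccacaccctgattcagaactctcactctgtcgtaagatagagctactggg
Cd274: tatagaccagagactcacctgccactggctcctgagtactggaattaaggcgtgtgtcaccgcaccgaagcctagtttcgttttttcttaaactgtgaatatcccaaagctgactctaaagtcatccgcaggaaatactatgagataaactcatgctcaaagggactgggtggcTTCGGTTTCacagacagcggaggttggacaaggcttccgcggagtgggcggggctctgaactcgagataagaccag
Slamf7: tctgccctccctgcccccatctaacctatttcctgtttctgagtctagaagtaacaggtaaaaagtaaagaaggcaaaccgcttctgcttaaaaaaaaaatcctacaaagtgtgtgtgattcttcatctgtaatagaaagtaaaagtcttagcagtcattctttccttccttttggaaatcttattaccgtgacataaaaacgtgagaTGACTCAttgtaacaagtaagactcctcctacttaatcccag
Both strands were searched for the IRF core GAAANNGAA, the AP-1 motif TGACTCA, the palindrome TTCNNNGAA and an NF-kB consensus. The Cd274 window held 1 IRF core, read on the minus strand and so printed as TTCGGTTTC, at positions -76 to -68 from the start site. The Slamf7 window held 1 AP-1 motif at -42 to -36, and no match to these motifs was found in the Cd80 window. Cd80, Cd274 and Slamf7 have 5, 3 and 9 RefSeq transcripts, and the annotated span of each gene begins upstream of its window. Any other start sites were not searched, and a link of the motifs to the changes was not tested. Of 32851 windows of the same length in the table, 7.13% held the IRF core, 4.46% the AP-1 motif, 7.02% the palindrome and 9.55% the NF-kB consensus. Windows were not shown for Cd40, Cd86 and Cd69.

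Total counts ran from 45165780 to 65810517 per library, and no pair of libraries held identical values. Levels are given below as CPM (read counts brought to a common library size, with TMM scaling) for comparisons within a gene and as FPKM (which also divides by transcript length) for comparisons between genes. The treatment check was Ifnb1, the interferon beta gene that STING signalling induces, which averaged 2.08 ± 0.261 CPM with cGAMP and 0.0669 ± 0.0580 CPM with DMSO (SD, n = 3 each). The 9 macrophage markers summed to between 3831 and 5582 CPM in every library, and the T cell, B cell, NK cell, neutrophil, fibroblast and epithelial marker lists summed to at most 0.415 CPM. The 5 dendritic cell markers summed to 1.05 to 2.23 CPM, a range that all groups shared and that is near the levels of Cd86, Cd69 and Slamf7. Most of it was Zbtb46 (0.753 to 1.83 CPM), Flt3 was at 0, and its part in the results was not tested. The 3 endothelial markers Kdr, Cdh5 and Tek summed to 3.24 to 5.19 CPM with cGAMP and 20 uM SB24011 and 2.16 to 2.48 CPM with cGAMP, against 0.345 to 0.795 CPM with SB24011 and 0.308 to 0.431 CPM with DMSO. Their part in the results was not tested, and in a bulk culture fewer cells that express a gene and less RNA per cell cannot be told apart. Library set 1, the 6 libraries that carry replicate number 1, held the highest Cd40 level in 6 of 6 groups and the highest Slamf7 level in 5 of the 5 groups with reads.

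With cGAMP alone, all 6 genes rose relative to DMSO by edgeR. Cd40 showed a 48.4-fold change and Cd274 a 7.90-fold change, Cd86 and Cd69 rose from low levels, Slamf7 appeared from 0 reads, and Cd80 rose the least, by 1.64-fold. Over all genes tested, 15.6% were called up and 19.8% were called down in this comparison (edgeR quasi-likelihood test, Benjamini-Hochberg adjusted p under 0.05). The median log2 fold change was 3.27 over the 6 genes and -0.06 over all genes tested. The 6 genes were chosen with earlier results of these data known. Their counts and medians beside those of all genes, here and below, are therefore descriptive and not a test of the set. Cd69 and Slamf7 had 0 of 3 DMSO libraries above the filter's cutoff of 0.186 CPM, and Cd86 had 2 of 3, so these genes entered the test through groups in which they were high.

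Among the costimulatory genes, Cd40 had 84.5, 45.0 and 52.8 CPM in the 3 cGAMP libraries, against 1.61, 1.44 and 0.588 CPM in the DMSO libraries. Every cGAMP library lay far above every DMSO library, and the log2 fold change was 5.60 ± 0.61 (SE; adjusted p = 5.26e-06), with an interval of 19.5 to 120-fold. Cd86, the B7 gene that was nearly silent in DMSO, had 2.88, 1.81 and 1.31 CPM with cGAMP, against 0.294, 0.147 and 0.373 CPM with DMSO. The groups did not overlap, and its log2 fold change was 2.92 ± 0.57 (adjusted p = 0.000623). Cd80, the other B7 gene, had 14.3, 15.7 and 12.3 CPM with cGAMP, against 8.18, 9.27 and 8.31 CPM with DMSO. It was already transcribed in vehicle-treated cells, and its log2 fold change was 0.71 ± 0.14 (adjusted p = 0.000834).

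The checkpoint ligand gene Cd274 had 38.6, 38.6 and 39.9 CPM with cGAMP, against 5.42, 4.51 and 4.88 CPM with DMSO. Its libraries were the tightest of the 6 genes with cGAMP, with a coefficient of variation of 1.92%, and the log2 fold change was 2.98 ± 0.15 (adjusted p = 8.58e-10). Cd69 had 0.544, 0.743 and 0.711 CPM with cGAMP, against 0, 0.0589 and 0.118 CPM with DMSO. The DMSO values rest on 0, 4 and 6 reads, a total of 10 with an exact 95% interval of 4.80 to 18.4 that covers counting error only. The log2 fold change of Cd69 was 3.56 ± 0.61 (adjusted p = 4.12e-05), and it was 2.93 without DMSO replicate 1 and 4.39 without DMSO replicate 3, called in both cases. Slamf7 had 1.93, 0.534 and 0.732 CPM with cGAMP, from 110, 23 and 34 reads, and 0 reads in all 3 DMSO libraries. Against a floor of 3 reads over the 3 DMSO libraries, its level was at least 66.4-fold higher with cGAMP (adjusted p = 0.00115), and at least 39.5-fold higher without cGAMP replicate 1, the highest library. By limma on log2(FPKM + 1), where a pseudocount of 1 is above every Slamf7 level of these groups, Slamf7 was not called (0.28, adjusted p = 0.314).

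**Figure D1:**
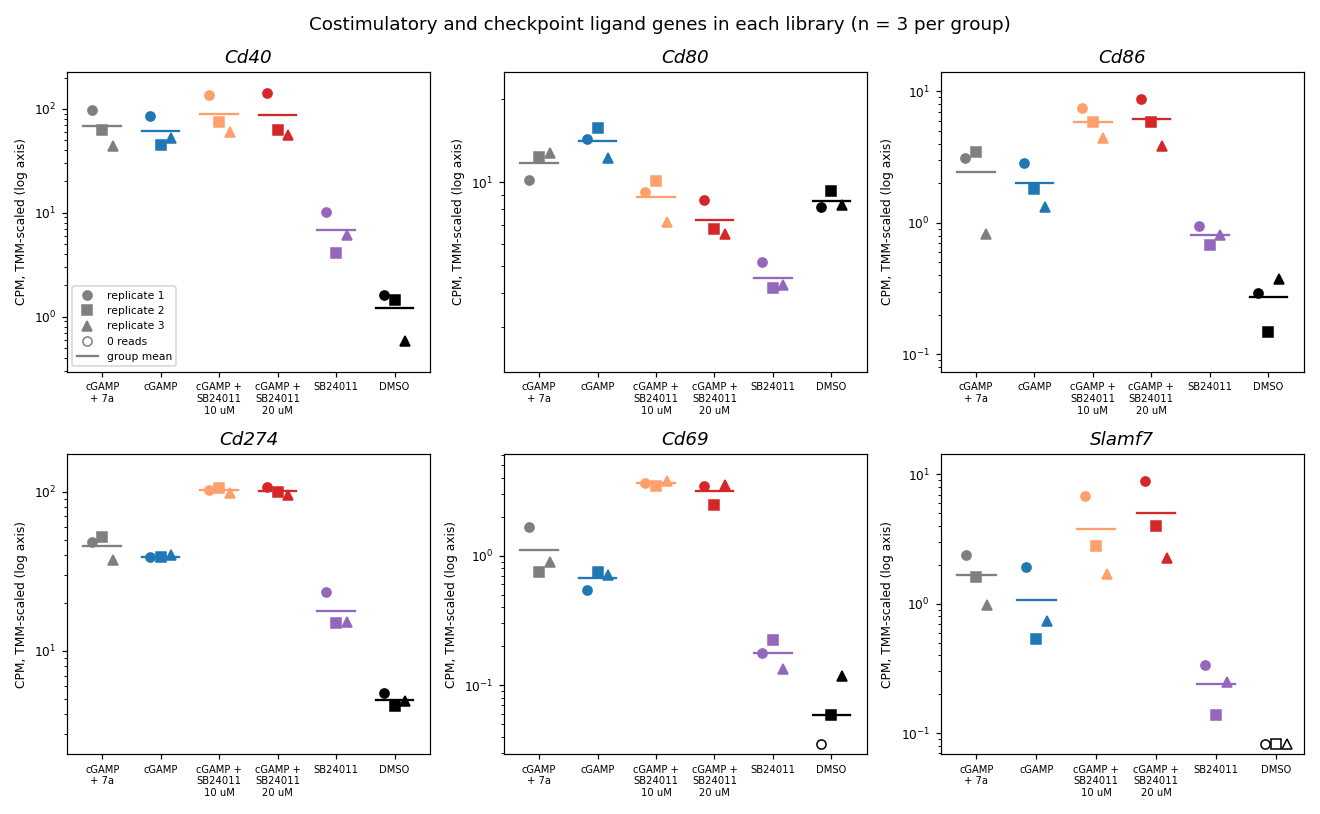
CPM of each gene in each library on log axes, in 6 panels with the groups along the horizontal axis (n = 3 per group); symbols mark replicates, lines mark group means and open symbols mark 0 reads. Cd40 was at 45.0 CPM or more in each cGAMP library and at 1.61 CPM or less in each DMSO library, while Cd80 stayed between 4.14 and 15.7 CPM in all 18 libraries.

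SB24011 without cGAMP also changed all 6 genes relative to DMSO, but not all in the same direction. Cd40, Cd86, Cd274, Cd69 and Slamf7 rose, and Cd80 fell. Cd69 and Slamf7, with 2 of 3 SB24011 and 0 of 3 DMSO libraries above the filter's cutoff, entered this test only through the groups with cGAMP. The calls were 5 genes up and 1 down of the 6, where 20.4% of all genes tested were called up and 24.3% down. The median log2 fold change was 1.76 over the 6 genes and -0.01 over all genes. The count of genes called up was 2 without DMSO replicate 1, DMSO replicate 2 or SB24011 replicate 1, and 2 by limma on log2(FPKM + 1). All 5 increases left the genes below their levels with cGAMP, at 11.2% of the cGAMP mean for Cd40, 45.6% for Cd274, 40.5% for Cd86, 26.7% for Cd69 and 22.6% for Slamf7.

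Cd274 had 23.4, 15 and 15.1 CPM in the SB24011 libraries, all above the DMSO libraries, with a group mean of 17.8 ± 4.79 CPM, against 4.94 ± 0.456 CPM with DMSO (SD, n = 3 each). Its log2 fold change was 1.85 ± 0.15 (adjusted p = 1.23e-07), a 3.61-fold difference. Cd40 had 10.1, 4.13 and 6.11 CPM with SB24011, with a log2 fold change of 2.44 ± 0.63 (adjusted p = 0.00486). The SB24011 libraries of Cd40 did not overlap those of cGAMP or DMSO. Cd80, whose product shares its receptors with CD86, had 5.16, 4.14 and 4.26 CPM with SB24011, a mean of 4.52 ± 0.559 CPM, against 8.59 ± 0.596 CPM with DMSO. All 3 libraries were below the lowest DMSO library, and Cd80 fell by 0.93 ± 0.15 on the log2 scale (adjusted p = 7.54e-05), to 0.527 of its DMSO level.

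The increases of the 3 low genes with SB24011 alone were small in reads and did not hold in every subset of libraries. Cd86 had 0.949, 0.673 and 0.811 CPM with SB24011, with a log2 fold change of 1.61 ± 0.59 (adjusted p = 0.0336). The Cd86 call was lost without DMSO replicate 1 (0.0718), DMSO replicate 2 (0.130), SB24011 replicate 1 (0.0907) or SB24011 replicate 3 (0.0665). Cd69, the activation antigen, had 0.177, 0.224 and 0.132 CPM, from 11, 13 and 8 reads, with a log2 fold change of 1.67 ± 0.65 (adjusted p = 0.0331). The Cd69 call was lost without DMSO replicate 1, where the log2 fold change was 1.04 (adjusted p = 0.120), DMSO replicate 2 (0.0715), SB24011 replicate 1 (0.0644) or SB24011 replicate 2 (0.10), and the log2 fold change was 2.50 without DMSO replicate 3. Slamf7 had 0.338, 0.138 and 0.248 CPM with SB24011, from 21, 8 and 15 reads, at least 15-fold above the DMSO floor (adjusted p = 0.0244). The Slamf7 call was lost without DMSO replicate 1 (0.0625), DMSO replicate 2 (0.0625), DMSO replicate 3 (0.0514) or SB24011 replicate 1 (0.0654).

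Adding 20 uM SB24011 to cGAMP raised 4 of the 6 genes and lowered 1 relative to cGAMP alone. Cd274 was 2.58-fold, Cd86 3.04-fold, Cd69 4.71-fold and Slamf7 4.64-fold higher, Cd80 was at 0.519 of its level with cGAMP, and Cd40 was not called. With 10 uM SB24011 the same 4 genes rose and Cd80 fell. Of all genes tested, 21.7% were called up and 20.6% down with 20 uM, and 19.9% were called up and 19.1% down with 10 uM. The median log2 fold change over the 6 genes was 1.49 with 20 uM and 1.46 with 10 uM, against a median of 0.02 over all genes with each dose. Without library set 2 the count of genes called up was 2 at each dose, and without cGAMP replicate 3 it was 2 at 10 uM.

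Cd274 had 102, 105 and 97.8 CPM with cGAMP and 10 uM SB24011, and 107, 99.6 and 95.4 CPM with cGAMP and 20 uM SB24011. These 6 libraries were all more than 95 CPM, while the cGAMP libraries averaged 39.0 ± 0.751 CPM. The log2 fold change over cGAMP was 1.38 ± 0.14 with 10 uM (adjusted p = 1.52e-06) and 1.37 ± 0.14 with 20 uM (adjusted p = 1.35e-06). Cd80 had 9.25, 10.1 and 7.19 CPM with cGAMP and 10 uM SB24011, and 8.65, 6.77 and 6.51 CPM with cGAMP and 20 uM SB24011, all below the lowest cGAMP library. Its levels in both combinations overlapped those of the DMSO libraries. Cd80 fell by 0.67 ± 0.14 on the log2 scale with 10 uM (adjusted p = 0.00138) and by 0.95 ± 0.14 with 20 uM (adjusted p = 6.03e-05).

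Cd86 had 7.42, 5.86 and 4.43 CPM with cGAMP and 10 uM SB24011, and 8.80, 5.81 and 3.87 CPM with cGAMP and 20 uM SB24011. Every one of these libraries was above every cGAMP library. The log2 fold change of Cd86 was 1.55 ± 0.44 with 10 uM (adjusted p = 0.0110), lost without cGAMP replicate 3 (1.32, adjusted p = 0.0534), and 1.61 ± 0.44 with 20 uM (adjusted p = 0.00826). Cd40 had 135, 74.3 and 59.2 CPM with cGAMP and 10 uM SB24011, and 142, 62.1 and 56.1 CPM with cGAMP and 20 uM SB24011. Its libraries overlapped those of cGAMP alone, and the spread between libraries was wide in every group, with coefficients of variation of 34.4 to 55.2%. The log2 fold change of Cd40 was 0.56 ± 0.44 with 10 uM (adjusted p = 0.351) and 0.51 ± 0.44 with 20 uM (adjusted p = 0.390), an interval of 0.736 to 2.75-fold for the higher dose. Within each of the 3 library sets, Cd40 was higher with cGAMP and 20 uM SB24011 than with cGAMP, by 0.09 to 0.75 on the log2 scale. With the replicate number as a block, which the numbers do not establish as a pairing here, the Cd40 difference was 0.43 for 20 uM (adjusted p = 0.0480) and 0.52 for 10 uM (adjusted p = 0.0228).

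Cd69 had 3.63, 3.42 and 3.79 CPM with cGAMP and 10 uM SB24011, and 3.42, 2.44 and 3.52 CPM with cGAMP and 20 uM SB24011. All were above the highest cGAMP library, and the log2 fold change was 2.44 ± 0.34 with 10 uM (adjusted p = 3.39e-05) and 2.24 ± 0.35 with 20 uM (adjusted p = 7.11e-05). Slamf7 had 6.86, 2.81 and 1.70 CPM with cGAMP and 10 uM SB24011, and 8.98, 3.97 and 2.28 CPM with cGAMP and 20 uM SB24011. The 10 uM libraries overlapped the cGAMP libraries and the 20 uM libraries did not. The log2 fold change of Slamf7 was 2.21 ± 0.64 with 20 uM (adjusted p = 0.0153), and it was 2.99 without cGAMP replicate 1, 1.90 without cGAMP replicate 2 (adjusted p = 0.0602), 2.00 without cGAMP replicate 3 (0.0611) and 1.51 when replicate 1 of the combination was left out (0.0788). With 10 uM it was 1.80 ± 0.65 (adjusted p = 0.0438), and 2.57 without cGAMP replicate 1, 1.49 without cGAMP replicate 2 (0.140), 1.58 without cGAMP replicate 3 (0.136), 1.05 when replicate 1 of the combination was left out (0.227) and 1.97 without its replicate 2 (0.0542).

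Between the 20 uM and 10 uM doses of SB24011 on cGAMP, none of the 6 genes was called. This was 0 of 6 by edgeR, with 0 of 6 at an unadjusted p under 0.05, and 0 by DESeq2 and by limma on FPKM. Over all genes, 0% were called in either direction by edgeR, with 404 genes at an unadjusted p under 0.05, and DESeq2 and limma called 0 genes. The log2 difference of Cd274 was -0.01, with a 95% interval of -0.30 to 0.28, which bounds the dose difference to between 0.812 and 1.21-fold. The intervals were wider for Cd80 (-0.28, from -0.59 to 0.03), Cd69 (-0.21, from -0.87 to 0.45), Cd86 (0.06, from -0.83 to 0.95), Cd40 (-0.05, from -1.0 to 0.90) and Slamf7 (0.42, from -0.88 to 1.72). Within library sets, Slamf7 was higher with 20 uM in 3 of 3 (0.39 to 0.49), Cd80 was lower in 3 of 3 (-0.58 to -0.10) and Cd69 was lower in 3 of 3 (-0.48 to -0.09).

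The analog 7a was compared with SB24011 at a matched dose of 20 uM on cGAMP, which made 1 pair of compounds. SB24011 gave higher Cd274, Cd86 and Cd69 and lower Cd80 than 7a, a total of 3 genes up and 1 down, where 19.7% of all genes tested were called up and 16.7% down. The p-values were adjusted over all genes tested. For Cd40 and Slamf7 the difference between the compounds was not called by edgeR, and their intervals were 0.661 to 2.46-fold and 1.21 to 7.77-fold. DESeq2 called 4 of the 6 genes and limma on FPKM called 5, with Slamf7 added. The labels describe 7a only as a negative analog, and a dose of 10 uM was not given for it.

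Cd274 had 107, 99.6 and 95.4 CPM with cGAMP and SB24011, against 48.2, 51.8 and 37.4 CPM with cGAMP and 7a, with no overlap. The log2 difference was 1.14 ± 0.14 (adjusted p = 1.14e-05), a 2.2-fold higher level with SB24011. Cd69 averaged 3.12 ± 0.595 CPM with cGAMP and SB24011, against 1.66, 0.743 and 0.898 CPM with cGAMP and 7a. Its log2 difference was 1.52 ± 0.33 (adjusted p = 0.00168), and without library set 3 it was 1.30 and not called (adjusted p = 0.0567). Cd80 had a mean of 7.31 ± 1.17 CPM with cGAMP and SB24011, against 10.2, 12.4 and 12.8 CPM with cGAMP and 7a. It was lower in each SB24011 library than in any 7a library, by 0.69 ± 0.14 in log2 terms (fold 0.618, adjusted p = 0.00122).

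Cd86 averaged 6.16 ± 2.48 CPM with cGAMP and SB24011, against 3.10, 3.44 and 0.816 CPM with cGAMP and 7a. The third 7a library was far below the other two, and the log2 difference of 1.34 ± 0.43 (adjusted p = 0.0246) was 0.91 without it (adjusted p = 0.0646) and 0.99 without replicate 1 of SB24011 (0.115). The Cd86 call was also lost without library set 1 (0.122) or set 2 (0.0744) and on only the groups compared (0.0886). Slamf7 averaged 5.08 ± 3.48 CPM with cGAMP and SB24011, against 2.39, 1.62 and 0.980 CPM with cGAMP and 7a. The libraries overlapped, and the log2 difference was 1.62 ± 0.62 (adjusted p = 0.0620), 1.97 and called without SB24011 replicate 3 (0.0313), and 1.49 with the replicate number as a block (0.000148). Slamf7 was called by limma on log2(FPKM + 1) (0.63, adjusted p = 0.0356) and on log2(FPKM + 0.1) (1.38, adjusted p = 0.0287), and by edgeR without library set 1 (1.26, adjusted p = 0.0296). Cd40 averaged 86.6 ± 47.8 CPM with cGAMP and SB24011, against 97.5, 62.2 and 44.2 CPM with cGAMP and 7a. The log2 difference was 0.35 ± 0.44 (adjusted p = 0.589).

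Against cGAMP alone, 7a gave no call among the 6 genes, and SB24011 and 7a share these cGAMP libraries as their control. By edgeR 0 of 6 genes passed, 0 of 6 had an unadjusted p under 0.05 (the smallest was 0.0623), and DESeq2 and limma on FPKM called 0. Over all genes tested 0% were called by edgeR, with 1208 genes at an unadjusted p under 0.05, DESeq2 called 20 up and 18 down, and the fit with the replicate block called 4 up and 4 down. Same-numbered libraries of these groups deviated together (correlations of 0.137 to 0.183), but the labels do not state a pairing. Without the third 7a library edgeR called 18 up and 30 down over all genes. The intervals of the change with 7a ran from 0.956 to 1.44-fold for Cd274, 0.681 to 1.03-fold for Cd80 and 0.971 to 2.78-fold for Cd69. They were wider for Cd40 (0.576 to 2.16-fold), Cd86 (0.622 to 2.34-fold) and Slamf7 (0.558 to 4.11-fold).

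**Figure D2:**
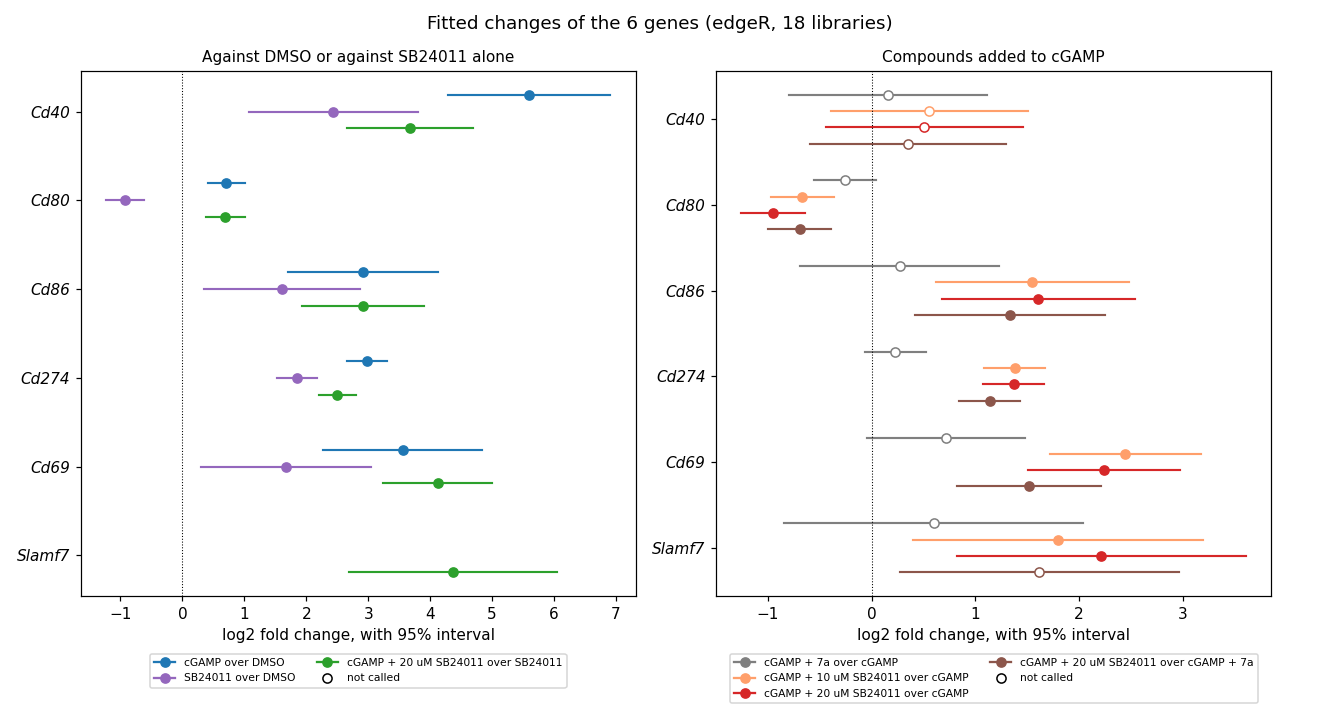
Fitted log2 fold changes with 95% intervals for the 6 genes, changes against DMSO or SB24011 alone in the left panel and compounds added to cGAMP in the right panel. Open circles were not called. Slamf7 against DMSO is not drawn, since it had 0 reads with DMSO and the fit gave no finite SE. With SB24011 on cGAMP, Cd80 lay left of 0 at both doses (-0.67 and -0.95) while Cd274 lay at 1.38 and 1.37, and all intervals of 7a included 0.

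Set against SB24011 alone, the combination of cGAMP with 20 uM SB24011 raised all 6 genes, where 15% of all genes tested were called up and 12.4% down. Cd40 was 12.7-fold higher (log2 3.67 ± 0.47, adjusted p = 7.52e-05) and Cd274 5.65-fold higher (2.50 ± 0.14, adjusted p = 3.69e-09). Cd86 was 7.54-fold, Cd69 17.4-fold and Slamf7 20.6-fold higher, the last with a log2 fold change of 4.37 ± 0.77 that was 3.67 without replicate 1 of the combination. Cd80 was 1.61-fold higher with cGAMP and SB24011 than with SB24011 alone (0.69 ± 0.15, adjusted p = 0.00198). Cd80 thus rose with cGAMP in cells with and without SB24011 and fell with SB24011 in cells with and without cGAMP.

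The interaction term, which sets the log2 change that 20 uM SB24011 gave in the presence of cGAMP against the one it gave in its absence (first minus second), was called for none of the 6 genes. By edgeR 0 of 6 passed, where 0.246% of all genes were called up and 0.123% down, and 2 of 6 had an unadjusted p under 0.05. DESeq2 called 0, limma on log2(FPKM + 0.1) called 0 and limma on log2(FPKM + 1) called 1, Cd69 (0.95, adjusted p = 0.00924). A pseudocount of 1 is above the mean Cd69 FPKM with DMSO (0.0204), SB24011 (0.0783) and cGAMP (0.246). It is below that of the combination (1.56), so this setting compresses the differences among the lower groups. For Cd80 the interaction was -0.02 ± 0.21, with an interval of -0.46 to 0.41, so the log2 decrease with SB24011 was of like size with and without cGAMP within that interval. The estimate was -1.93 ± 0.77 for Cd40 (adjusted p = 0.442) and -0.48 ± 0.21 for Cd274 (adjusted p = 0.487), negative in 3 of 3 library sets for each. With the replicate number as a block the Cd40 interaction was -2.01 (adjusted p = 0.00916). It was 0.57 ± 0.74 for Cd69 (adjusted p = 0.923), and for Slamf7 the fit gave no usable interaction, since DMSO had 0 reads.

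The order of the groups differed between Cd80 and the other members. Overlap between groups, here and above, describes 3 libraries per group. The share of all genes tested whose groups separate in this way was not computed. Cd274, Cd86 and Cd69 were highest in both combinations of cGAMP with SB24011, which overlapped each other, then in cGAMP with 7a and cGAMP alone, which also overlapped, then in SB24011 and last in DMSO, with no overlap at the other steps between neighbours. The third 7a library of Cd86, at 0.816 CPM, lay within the range of the SB24011 libraries. For Cd40 and Slamf7 each neighbouring pair among the 4 cGAMP groups overlapped, and only the steps from cGAMP to SB24011 and from SB24011 to DMSO were clear. Cd80 was highest with cGAMP (14.1 ± 1.71 CPM) and cGAMP with 7a (11.8 ± 1.41 CPM). It was intermediate with 10 uM SB24011 on cGAMP (8.86 ± 1.52 CPM), 20 uM SB24011 on cGAMP (7.31 ± 1.17 CPM) and DMSO (8.59 ± 0.596 CPM), which overlapped as neighbours in that order of levels, and lowest with SB24011 (4.52 ± 0.559 CPM).

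Between genes, FPKM gave a different leading transcript in each state. In all 4 groups with cGAMP, Cd40 led, with 44.0 FPKM at 10 uM SB24011 on cGAMP, 41.8 FPKM with cGAMP and 20 uM SB24011, 32.7 FPKM with cGAMP and 7a, and 29.6 FPKM with cGAMP. With SB24011 alone, Cd274 led with 4.48 ± 1.23 FPKM, next to Cd40 with 3.68 ± 1.68 FPKM and Cd80 with 1.97 ± 0.374 FPKM (SD, n = 3). In DMSO, Cd80 was the most abundant of the 6 with 3.54 ± 0.194 FPKM, ahead of Cd274 with 1.19 ± 0.153 FPKM and Cd40 with 0.627 ± 0.307 FPKM (SD, n = 3). Cd86, Cd69 and Slamf7 stayed the 3 lowest of the 6 in every group.

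The balance among the B7 transcripts is described on FPKM. The FPKM ratio of Cd80 to Cd86, given as a geometric mean with no test, was 1.41 with 20 uM SB24011 on cGAMP, 1.67 with 10 uM SB24011 on cGAMP, 6.26 with cGAMP and 7a, 8.07 with cGAMP, 7.15 with SB24011 and 42.6 with DMSO. Without the third 7a library the 7a ratio was 3.65. On quantile-normalized log2(FPKM + 1) values the log2 ratio was 1.91 with cGAMP and 2.01 with DMSO, so the gap between these groups was seen on FPKM with no or a small pseudocount. The libraries of both combinations with SB24011 lay lowest, at log2 ratios of 0.49 ± 0.41 and 0.74 ± 0.24, against 3.01 ± 0.58 with cGAMP and 5.41 ± 0.79 with DMSO. The ratio of Cd274 to Cd80 was 8.26 with 20 uM SB24011 on cGAMP, 6.97 with 10 uM SB24011 on cGAMP, 2.36 with cGAMP and 7a, 1.64 with cGAMP, 2.25 with SB24011 and 0.335 with DMSO. Cd274 was thus above Cd80 in each of the 5 treated groups and below it in DMSO. The FPKM ratio of Cd274 to Cd86 was between 11.6 and 16.1 in the 6 groups. On quantile-normalized log2(FPKM + 1) values its log2 ratio was 3.01 with 20 uM SB24011 on cGAMP and 0.99 with DMSO, and Cd86 in DMSO rested on 20, 10 and 19 reads.

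**Figure D3:**
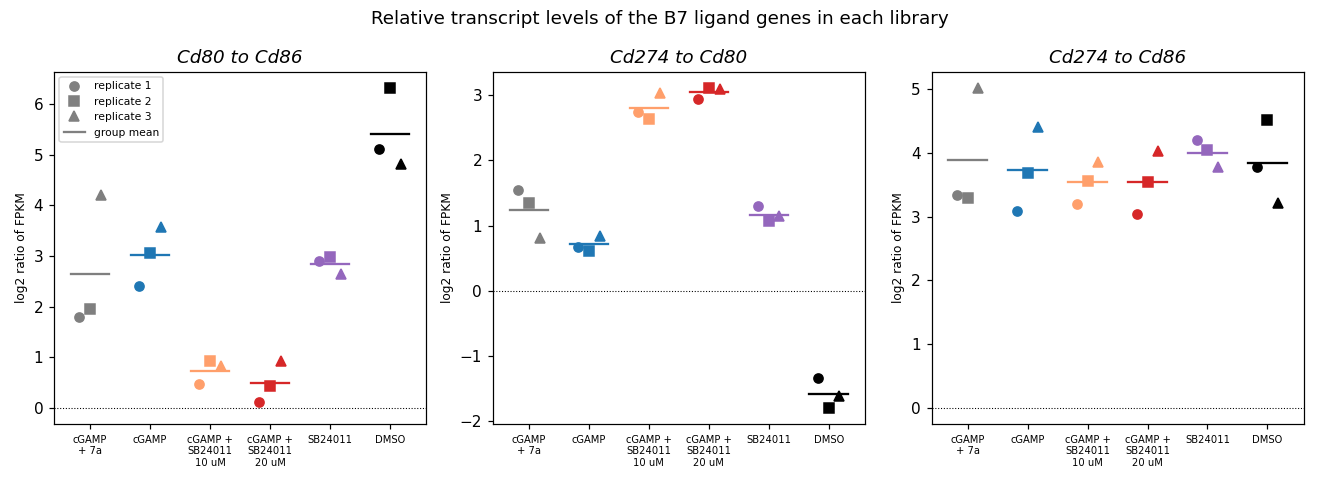
Log2 ratios of FPKM between the B7 ligand genes in each library, in 3 panels with the groups along the horizontal axis; symbols mark replicates and lines group means. Mean Cd80/Cd86 ran from 0.49 to 5.41 and mean Cd274/Cd80 from -1.58 to 3.05, and mean Cd274/Cd86 from 3.54 to 4.01 on FPKM with no pseudocount; on quantile-normalized values Cd274/Cd86 was 0.99 with DMSO and at most 3.04.

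Related gene lists were counted in the comparisons of cGAMP with DMSO, SB24011 with DMSO and cGAMP plus 20 uM SB24011 with cGAMP. The medians over all genes were -0.06, -0.01 and 0.02 (log2) in these. Of all genes tested, 15.6%, 20.4% and 21.7% were called up, and 19.8%, 24.3% and 20.6% were called down. The lists were chosen with earlier results of these data known, and their counts were not tested against these shares. Among other B7 family genes, 3 of 9 were tested, with median log2 fold changes of -0.39, -0.36 and -0.38 in the 3 comparisons. With cGAMP, Icosl, the ligand of ICOS, rose (log2 1.32 ± 0.44, adjusted p = 0.0290) and Vsir, which encodes the checkpoint protein VISTA, fell (-0.83 ± 0.15, adjusted p = 0.000339). Cd276, which encodes B7-H3, fell with SB24011 alone (-0.60 ± 0.15, adjusted p = 0.00400) and with SB24011 on cGAMP (-0.68 ± 0.16, adjusted p = 0.00215). Of 5 nectin and PVR genes, ligands of DNAM-1, TIGIT and CD96, 3 rose and 2 fell with cGAMP, with medians of 0.38, 0.02 and -0.05. Nectin1 fell in all 3 comparisons (-1.23, -0.95 and -0.78), and Pvr rose with SB24011 alone (0.47) and on cGAMP (0.29).

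CD40 and its ligand belong to the TNF receptor and TNF superfamilies. Of 8 TNF ligand genes tested, 6 rose with cGAMP and 2 with SB24011 alone, and the medians were 1.76, 0.25 and 0.24. Tnfsf10, which encodes the death ligand TRAIL, rose by 6.71 ± 0.44 on the log2 scale with cGAMP (adjusted p = 7.82e-09) and by 1.53 ± 0.49 with SB24011 (adjusted p = 0.0167). Of 10 other TNF receptor genes, 5 rose and 1 fell with cGAMP, 4 rose and 2 fell with SB24011, and 3 rose and 2 fell with SB24011 on cGAMP, with medians of 0.33, 0.38 and 0.21. Tnfrsf14, which encodes HVEM, the ligand of BTLA, rose with cGAMP (3.86 ± 0.32, adjusted p = 6.28e-08), and the death receptor gene Fas rose with cGAMP (2.49 ± 0.46) and with SB24011 (1.30 ± 0.47). Of 11 genes of CD40 signalling, 5 rose and 1 fell with cGAMP, 2 rose and 2 fell with SB24011, and 3 rose and 2 fell with SB24011 on cGAMP, with medians of 0.46, 0.08 and 0.20. Over all genes tested, 20.4% were called up and 24.3% down with SB24011, and 21.7% and 20.6% with SB24011 on cGAMP. Relb, a subunit of the alternative NF-kB pathway, rose with SB24011 alone (0.81 ± 0.25, adjusted p = 0.0162) and on cGAMP (0.71 ± 0.25, adjusted p = 0.0313). Traf3, an inhibitor of that pathway, fell with SB24011 alone (-0.49 ± 0.06, adjusted p = 1.95e-06) and on cGAMP (-0.45 ± 0.06, adjusted p = 7.65e-06). Map3k14, of the same list, also fell with SB24011 alone (-0.29 ± 0.11, adjusted p = 0.0361). Traf6 rose with SB24011 alone (0.37 ± 0.07, adjusted p = 0.000177) and on cGAMP (0.35 ± 0.07, adjusted p = 0.000333). A change in the activity of the pathway was not tested.

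Genes close to Slamf7 and Cd69 in family or function were also measured. Of 5 other SLAM family genes tested, 3 rose with cGAMP, 2 with SB24011 and 2 with SB24011 on cGAMP, with medians of 0.41, 0.46 and 0.89. Slamf9 rose in all 3 comparisons (2.32 ± 0.43, 2.90 ± 0.42 and 1.96 ± 0.33). Slamf9 averaged 3.35 ± 0.716 CPM with cGAMP and 20 uM SB24011, 0.849 ± 0.184 CPM with cGAMP, 1.28 ± 0.280 CPM with SB24011 and 0.165 ± 0.0992 CPM with DMSO. A list on control of the members' proteins at the surface had 6 genes tested, and it counts S1pr1, whose product is held by CD69. Of these 6, 1 rose and 3 fell with cGAMP, 1 rose and 2 fell with SB24011, and 1 rose and 1 fell with SB24011 on cGAMP, with medians of -0.12, -0.00055 and 0.09. The 1 that rose with SB24011, alone and on cGAMP, was S1pr1 itself. S1pr1, whose product CD69 holds inside the cell, fell with cGAMP (-2.25 ± 0.50, adjusted p = 0.00158) and rose with SB24011 (3.03 ± 0.37, adjusted p = 8.53e-06) and with SB24011 on cGAMP (3.43 ± 0.50, adjusted p = 2.36e-05). Cmtm6, whose product protects PD-L1 from degradation, rose with cGAMP (0.76 ± 0.14) and fell with SB24011 alone (-0.53 ± 0.14) and on cGAMP (-0.44 ± 0.14). Of 8 C-type lectin genes tested from the Cd69 region, 3 rose with cGAMP, among them Clec2d (3.94 ± 0.49), the ligand of an inhibitory NK receptor, and the medians were 1.13, 0.30 and 0.39.

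Receptors that are best known from T cells were read in these macrophage-like cells too, and of 5 tested 3 rose with cGAMP, 1 fell with SB24011 and 2 fell with SB24011 on cGAMP (medians 1.13, -0.94 and -0.58). Pdcd1, which encodes PD-1, averaged 76.5 ± 7.60 CPM with cGAMP, against 8.44 ± 1.17 CPM with DMSO, and rose by 3.18 ± 0.16 (adjusted p = 1.86e-09). It was lower with SB24011 than with DMSO (-0.94 ± 0.18, adjusted p = 0.000556) and lower with cGAMP and SB24011 than with cGAMP (-0.70 ± 0.16, adjusted p = 0.00214), as Cd80 was and unlike Cd274, the gene of its ligand. Of 14 genes for other inhibitory ligands and receptors of myeloid cells, 5 rose and 4 fell with cGAMP, 9 rose and 1 fell with SB24011, and 5 rose and 1 fell with SB24011 on cGAMP, with medians of 0.06, 0.54 and 0.51. Pirb, an inhibitory receptor for MHC class I, rose with SB24011 alone (2.40 ± 0.29) and on cGAMP (1.72 ± 0.30), and Cd47, the signal read by SIRP alpha, rose with cGAMP (1.86 ± 0.13). Cd24a fell with SB24011 alone (-1.26 ± 0.17) and on cGAMP (-0.98 ± 0.17).

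Of 14 transcription factors known to act on these genes, 8 rose and 1 fell with cGAMP, 3 rose and 2 fell with SB24011, and 1 rose with SB24011 on cGAMP, with medians of 0.95, -0.03 and 0.11. Irf1, an activator of Cd274, rose with cGAMP (2.50 ± 0.23, adjusted p = 1.87e-06). Hif1a was the 1 that rose with SB24011 on cGAMP (0.29 ± 0.05, adjusted p = 0.000149). Of 7 other maturation markers of antigen-presenting cells, 4 rose with cGAMP and the medians were 0.83, 0.20 and -0.03. Those that rose included Il15 (4.20 ± 0.35) and Icam1 (1.19 ± 0.34). With SB24011 on cGAMP, Fscn1, an actin-bundling protein of mature dendritic cells, fell (-1.17 ± 0.34, adjusted p = 0.0108).

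**Figure D4:**
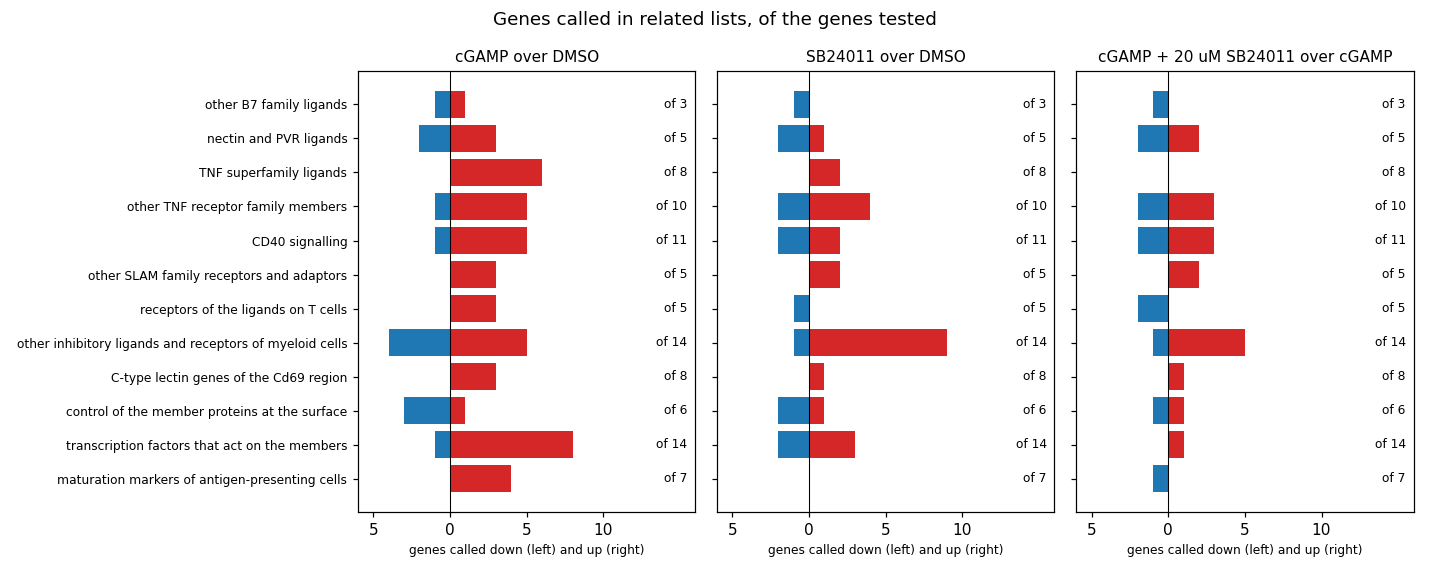
Number of genes called up (bars to the right) and down (bars to the left) in each related list, in 3 comparisons, with the number tested at the right. The TNF superfamily ligands had 6 of 8 up with cGAMP, and the other inhibitory genes of myeloid cells had 9 of 14 up with SB24011 alone. Over all genes tested, 15.6% were called up with cGAMP and 20.4% with SB24011 alone.

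Across the 18 libraries, 5 of the genes had like profiles and Cd80 did not. Pearson correlations of log2 CPM among Cd40, Cd86, Cd274, Cd69 and Slamf7 ran from 0.877 to 0.968, and those of Cd80 with the other 5 from 0.175 to 0.404. These points share libraries and 6 groups, and they are descriptive. With genes averaging less than 1 CPM set aside, the closest profiles were those of Slfn2 (0.994) and Cd47 (0.992) for Cd40, Ndst2 (0.968) and Tor1b (0.958) for Cd80, and Elmod2 (0.974) and Sgcb (0.972) for Cd86. For Cd274 they were Rnf114 (0.991) and Tlk2 (0.991), for Cd69 AW011738 (0.961) and Zfp281 (0.961), and for Slamf7 Lamp2 (0.992) and Cyp4v3 (0.990). AW011738 was also the third closest to Cd274 (0.990).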

How the data were processed

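Per the labels' protocols, RNA was extracted with an RNeasy plus mini kit and libraries were made with a TruSeq stranded mRNA kit. The tools in the submitters' processing notes are StringTie 2.1.3b, HISAT2 2.1.0, Trimmomatic 0.38 and Bowtie2 2.3.4.1, and the build is GRCm38 (mm10). Which counter was used, and how it treated strand and multi-mapping reads, is not given in the sources used here. Of the deposited tables, one holds raw counts and the authors' FPKM values for each gene. The other deposited table gives quantile-normalized log2(FPKM + 1) values, also made by the authors, for 13908 genes including 4 of the 6 members. The 18 TPM columns were not used.

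Counts were filtered with filterByExpr (minimum count 10) and scaled by TMM. One quasi-likelihood model (edgeR 4.0.16, R 4.3.3) was fitted to all 18 libraries, with 12 residual degrees of freedom and no covariate. Two-sided p-values received Benjamini-Hochberg adjustment over 14650 genes, with calls made at an adjusted p under 0.05. Fold changes use a prior count of 0.125. SE and the intervals were computed from the fitted model, and not from the F statistic behind the p-values. An SE could thus be infinite where the p-value was finite, as for Slamf7 against DMSO. Alternatives were DESeq2 1.42.0, limma 3.58.1 on log2(FPKM + 1), log2(FPKM + 0.1) and the quantile-normalized values, library size scaling, no filter, a fit on only the groups compared, a replicate block, and leaving out single libraries or library sets. Same-numbered libraries deviated together in every pair (correlation over 0.1) for SB24011 against DMSO (0.125 to 0.178), cGAMP with 7a against cGAMP (0.137 to 0.183) and cGAMP with SB24011 against SB24011 (0.105 to 0.176). Library size scaling, which does not centre the genes, gave 24.9% of calls upward for cGAMP against DMSO where TMM gave 44.1%, 57.4% for SB24011 against DMSO where TMM gave 45.7%, 24.2% for cGAMP with SB24011 against SB24011 where TMM gave 54.7%, and 30.3% for the interaction where TMM gave 66.7%. Likeness was Pearson's correlation of log2 CPM (prior count 2), with the 3 closest genes per member kept, and up to 4 genes with the largest called change were eligible to be named per list and comparison. The members and lists were chosen with earlier results of these data known. Promoter windows are from RefSeq, and 3 of 6 members matched.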

Additional observations from a re-analysis of the deposited data

How the results depend on the processing

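Of 988 alternative values for the members, 889 kept their direction and side of the threshold, 49 lost the call, 9 gained it and 41 differed in sign. The causes were not tested. For SB24011 against DMSO, the count of members called up was 5, but 2 by limma on log2(FPKM + 1), log2(FPKM + 0.1) or quantile-normalized values and without library set 2, 3 without library set 1, 3 of the 4 members that passed the filter on only the groups compared (Cd69 and Slamf7 did not), and 2 to 4 when single libraries were left out. For SB24011 on cGAMP it was 4 at either dose, but 2 on quantile-normalized values and without library set 2, and 2 to 4 for 10 uM when single libraries were left out. Cd69 and Slamf7 have no quantile-normalized value. The interaction gained 1 member up by limma on log2(FPKM + 1), 0 by limma on log2(FPKM + 0.1), and 1 down with the replicate block. With the replicate block, 5 members were called up for each dose of SB24011 on cGAMP and 4 for SB24011 against 7a on cGAMP, the additions being Cd40 and Slamf7, and no other call changed. In some comparisons not every pair of same-numbered libraries correlated over 0.1 (lowest 0.0242). Over the whole series, 18 of 18 libraries correlated best, among libraries of all other groups, with one of their own number, as a hint from the data. The best match within a single comparison was not computed.

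The values that differed in sign were not called in either setting. The Cd86 interaction was 0.0020 without a filter, 0.59 and 0.42 with pseudocounts of 1 and 0.1, 0.59 on quantile-normalized values, 0.057 and 0.17 without sets 1 and 2, and -0.35 to 0.37 with single libraries left out. The Slamf7 interaction has no usable edgeR value to compare with, and was 0.70 and 1.27 with the pseudocounts of 1 and 0.1; the Cd274 interaction 0.061 on quantile-normalized values. The Cd69 interaction was -0.48 without set 3 and -0.27 to 1.19 with single libraries left out, and the Cd80 interaction -0.16 to 0.085. Between 20 and 10 uM, Cd86 was -0.0075 and -0.022 with the pseudocounts, -0.094 without set 1 and -0.29 to 0.31 over single libraries, Cd40 0.021 without set 2 and -0.60 to 0.37, Cd274 0.023 without set 2 and -0.059 to 0.025, and Slamf7 -0.28 to 1.16. With 7a against cGAMP, Cd86 was -0.13 without set 2 and -0.068 to 0.70 over single libraries, and Cd40 -0.20 to 0.47. With 20 uM SB24011, Cd40 was -0.044 to 0.82 against cGAMP and -0.20 to 0.70 against 7a.

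On quantile-normalized values the log2 ratio of Cd80 to Cd86 was 1.91 with cGAMP, 1.15 with SB24011 and 2.01 with DMSO, that of Cd274 to Cd80 was 2.51 with 10 uM SB24011 on cGAMP, 2.68 with 20 uM SB24011 on cGAMP, 0.87 with SB24011 and -1.02 with DMSO, and that of Cd274 to Cd86 was 3.04 and 3.01 with these combinations, 2.65 with cGAMP and 7a, 2.51 with cGAMP, 2.01 with SB24011 and 0.99 with DMSO. With a pseudocount of 0.1, Cd80 to Cd86 was 2.46 with SB24011 and 4.28 with DMSO, and Cd274 to Cd86 was 3.59 with SB24011 and 2.78 with DMSO. Read depth limits Cd86, Cd69 and Slamf7 in DMSO, where totals were 49, 10 and 0 reads.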
